A study of Homo sapiens with 25 samples.

Results

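Ribosomal protein genes encode the proteins of the large and small ribosomal subunits, and every growing cell transcribes them heavily. A list of 52 such genes was followed through the 18 lists of chromatin immunoprecipitation peaks of the series. The genes were chosen by name, and for each the peaks overlapping its hg38 RefSeq span extended by 2 kb on either side were collected. RPL24 lies in a stretch that is blank in all 18 lists and is not analysed here. The remaining 51 genes, of 19970 protein-coding genes on chromosomes 1 to 22 and X, comprise 29 large-subunit genes, 3 stalk genes (RPLP0, RPLP1 and RPLP2) and 19 small-subunit genes, spread over 17 chromosomes.

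All libraries came from HCT116, an established human colorectal carcinoma line, grown under puromycin per the labels. Control cells carried the empty pSin vector, and FOXD2 cells carried a pSin lentivirus with the full-length coding sequence of FOXD2, a forkhead transcription factor. A further group received the plasmid pcDNA3.1-FOXD2-3xflag-6xhis and was profiled with antibodies to the tags. All groups keep their own FOXD2 gene, and the promoter that drives the added copy was not given in the sources used here. H3K4me1, H3K27ac and MLL4 were each mapped in 2 control and 2 FOXD2 libraries, H3K4me3 in 1 library per group, and each tag in 2 libraries. The histone marks came from MNase-digested chromatin without crosslinking, and MLL4 and the tags from crosslinked, sonicated chromatin. The other 7 of the 25 samples are inputs and are not used here.

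H3K4me3 marks the promoters of transcribed genes, H3K27ac marks active promoters and enhancers, and H3K4me1 typically flanks promoters and marks enhancers. MLL4, the product of KMT2D, is an H3K4 methyltransferase known mainly from enhancers. Ribosomal protein genes are short, are transcribed together, and often host small nucleolar RNAs in their introns. Their mRNAs typically begin with a C followed by an unbroken run of pyrimidines, the terminal oligopyrimidine tract, through which the cell sets their translation together.

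The lists differed in length, which bears on all that follows. H3K4me1 lists held 101204 and 95756 peaks in control and 114893 and 129887 in FOXD2 cells, H3K27ac lists 129995 and 85832 against 85122 and 141008, and MLL4 lists 16046 and 13571 against 22493 and 4676, each in the order of replicates 1 and 2. For H3K4me3 the control list held 24528 peaks and the FOXD2 list 22975, the 6xHis lists held 48194 and 26942, and the FLAG lists held 38472 and 31424. Read depth was not given in the sources used here, so the lists set no limit of detection and a missing peak does not show that a mark is absent. H3K4me3 lay in both lists at 5 of 8 colon epithelial markers (EPCAM, CDH1, KRT8, KRT18 and CDX2) and in neither at KRT20, VIL1 and CDX1. It also lay in both lists at 2 of 5 blood markers, 4 of 5 markers of fibroblasts and endothelium and 2 of 4 neural ones, so this mark does not separate the cell types, and the part of other cells in the results was not tested. The labels do not say whether replicates came from different cultures, so p-values here reflect only how far these libraries scatter, which may be technical.

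The promoters themselves were read first, from RefSeq (GRCh38.p14), which held 43 of the 51 genes. Of these 43, 35 (81.4%) had a C at an annotated start base, against 15.0% of all 15811 promoters. An unbroken run of at least 5 pyrimidines from the start base was present at 32 (74.4%, against 6.72%), and CTTTC within 10 bases of the start, on the gene strand, at 23 (53.5%, against 5.07%). The 8 stretches that follow run from 60 bases before to 20 after a start site, with the pyrimidine run from the start base in capitals. The first 4 belong to the genes with the strongest tag peaks in all 4 tag lists, and the last 4 to those with the widest H3K4me3 among the genes with no tag peak and with a promoter entry. They are shown because the tract occurs in both sets.
RPS19, chr19:41860195-41860274, plus strand: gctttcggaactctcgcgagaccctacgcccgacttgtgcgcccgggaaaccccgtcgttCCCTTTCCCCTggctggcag
RPL31, chr2:101002229-101002308, plus strand: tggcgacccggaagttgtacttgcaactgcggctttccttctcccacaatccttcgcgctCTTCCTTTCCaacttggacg
RPL21, chr13:27251498-27251577, plus strand: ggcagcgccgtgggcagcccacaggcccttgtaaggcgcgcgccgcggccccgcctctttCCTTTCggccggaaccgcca
RPL4, chr15:66504836-66504915, minus strand: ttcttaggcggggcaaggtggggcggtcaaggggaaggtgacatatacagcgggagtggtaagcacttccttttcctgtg
RPL3, chr22:39319604-39319683, minus strand: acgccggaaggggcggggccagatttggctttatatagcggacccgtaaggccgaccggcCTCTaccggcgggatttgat
RPLP2, chr11:809907-809986, plus strand: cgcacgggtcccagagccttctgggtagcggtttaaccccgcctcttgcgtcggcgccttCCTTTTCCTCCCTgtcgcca
RPL18, chr19:48619159-48619238, minus strand: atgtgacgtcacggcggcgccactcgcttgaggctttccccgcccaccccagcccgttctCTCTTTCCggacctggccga
RPL7A, chr9:133348158-133348237, plus strand: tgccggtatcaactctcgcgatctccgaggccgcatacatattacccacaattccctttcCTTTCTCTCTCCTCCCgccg

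The run from the start base was 11 bases in RPS19, 10 in RPL31, 6 in RPL21 and 0 in RPL4, and it was 4, 13, 8 and 16 bases in RPL3, RPLP2, RPL18 and RPL7A. RPL4 thus lacks the run at its listed start, and the 4 bases of RPL3 fall short of the 5 counted above. Other words searched on both strands of the window from 250 bases before to 50 after the start were less particular. The ETS word CCGGAAG lay in 14 of 43 promoters (32.6%, against 16.5% of all), as in RPL3, RPL18 and RPL31. The SP1 word GGGCGG lay in 26 (60.5%, against 64.3%), the YY1 word AAGATGG in 5 (11.6%, against 7.90%) and the TATA word TATAAA in 5 (11.6%, against 12.4%). The forkhead word GTAAACA lay in 0 of 43, against 3.76% of all promoters. A match or its absence describes only the letters of this window.

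With the blank RPL24 left out, H3K4me3 peaks lay at every one of the 51 genes in both lists, against 68.3% of all protein-coding genes, blank ones included. The widest peak at each gene had a median width of 3132 bp in control and 3023 bp in FOXD2 cells, against 2157 and 2102 bp over the 13645 protein-coding genes with the mark in both lists. Taking the mean of both lists, 42 of the 51 genes were wider than the gene median of 2133.5 bp, and their own median of 3058 bp stood at the 85.2 percentile. A width of 4 kb or more was reached by 8 of them (15.7%), against 3.90% of those genes. Short genes alone did not differ much from all genes. Among the 5625 genes with H3K4me3 and a span no longer than that of RPS24, the longest of the 51 at 22944 bp, the medians were 2292 and 2223 bp. That restricted set was chosen after the data were seen. The fold enrichment deposited by the authors for the top peak was nearer to that of other genes, with medians of 119 and 106 at ribosomal protein genes against 109 and 100.4 at all genes with a peak.

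The widest domains lay at RPS2, RPL13, RPL28 and RPL3. RPS2 (chromosome 16, 1962058 to 1964826), a small-subunit gene beside NDUFB10, had a peak of 7594 bp in control and 7603 bp in FOXD2 cells. RPL13 (chromosome 16, 89560657 to 89566829), a large-subunit gene, had 7749 and 4592 bp. RPL28 had 5420 and 5409 bp, and RPL3, which contributes to the peptidyl transferase centre, had 5024 and 5004 bp. Of these 4 genes, RPL13 alone differed between the lists by more than 20 bp. The peaks at RPS2 and RPL28 run past the windows, where they cover 6352 and 4289 bp in control. At the other end stood RPL5, whose protein forms the 5S ribonucleoprotein particle with RPL11, with 1149 and 1167 bp. RPS27 had 1548 and 1199 bp, RPL27 had 1773 and 1792 bp, and RPS24, a gene mutated in Diamond-Blackfan anaemia, had 1813 and 1800 bp. By their widest peak these 4 were narrower than the median gene in both lists. RPL5 and RPS24 each held 2 peaks in both lists. Together these covered 1637 bp of the window at RPL5 in control and 1591 bp in FOXD2 cells, and 2435 and 2311 bp at RPS24.

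**Figure D1:**
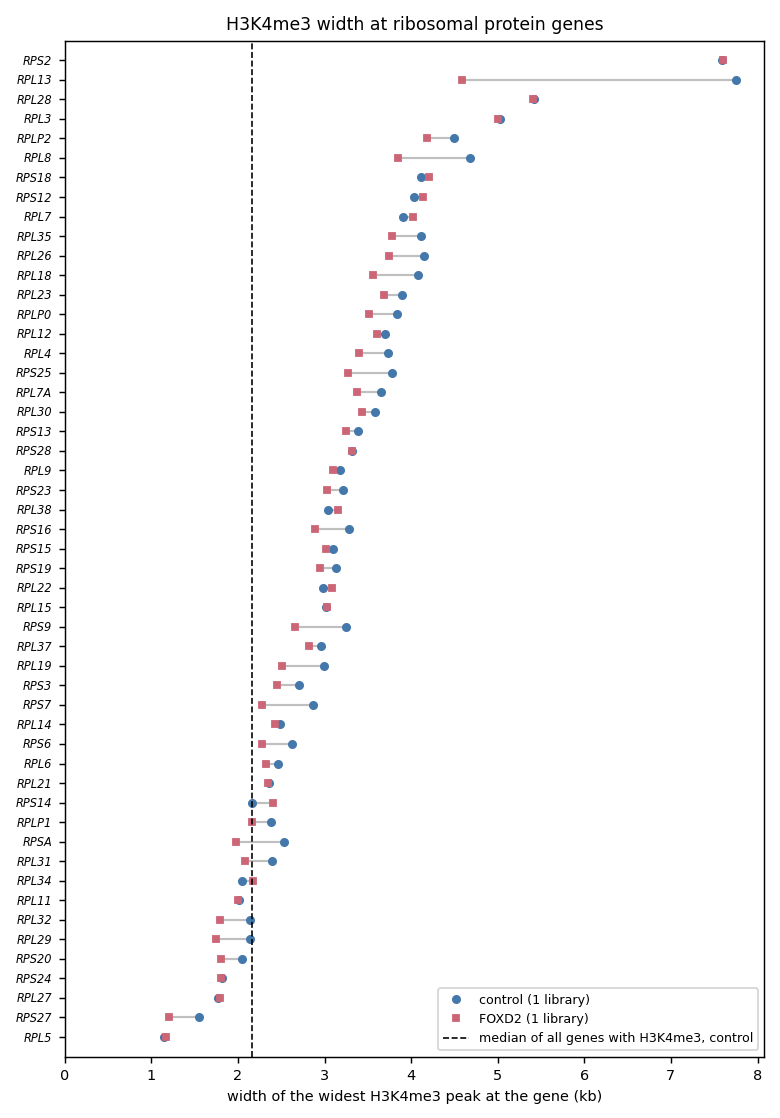
Width of the widest H3K4me3 peak (kb, horizontal axis) at each of the 51 ribosomal protein genes, with 1 control library (circles) and 1 FOXD2 library (squares) joined by a line. The dashed line is the control median of all genes with H3K4me3, 2157 bp, and most genes lie to its right, from RPL5 at 1149 bp to RPL13 at 7749 bp in control.

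Width also varied with the surroundings of the gene. The 23 genes with another protein-coding gene in the window had medians of 3698 and 3374 bp, and the 28 without one had 2985.5 and 2741.5 bp. The widest peak touching the window can be that of the neighbour or run over both promoters. Its part in this difference was not tested. The 19 genes that hold small nucleolar RNA genes, 37 in all, had medians of 3650 and 3396 bp, against 3026 and 2917.5 bp for the other 32. By subunit the medians lay close together, at 3040 and 3102 bp for the large subunit and 3132 and 2885 bp for the small one, and the 3 stalk genes had 3838 and 3510 bp.

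With 1 library per group, the change of H3K4me3 width has no replicate check. The median ratio of FOXD2 to control was 0.94 (log2 -0.08) at ribosomal protein genes and 0.98 (log2 -0.03) over all genes with the mark. The peak was narrower in FOXD2 cells at 40 of the 51 genes (78.4%) and wider at 11, while 60.9% of all genes and 62.0% of the short ones were narrower. Most of these differences were small. A narrowing of at least 1.25-fold was found at 4 genes (7.84%, against 7.97% of all), and a widening of that size at 0, against 3.06% of all. The share with the larger narrowing was thus near that of genes at large.

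The 4 largest falls were at RPL13, RPS27, RPSA and RPS7. RPL13 went from 7749 to 4592 bp, a log2 ratio of -0.75. In the FOXD2 list this domain was broken into 2 peaks, which together covered 6358 bp of the window. RPS27 went from 1548 to 1199 bp and RPSA, the laminin receptor homologue of the small subunit, from 2531 to 1981 bp. Both again held 1 peak in control and 2 in the FOXD2 list, and their total covered length moved little, from 1548 to 1619 bp and from 2531 to 2488 bp. RPS7 kept a single peak, of 2862 bp in control and 2281 bp in FOXD2 cells. Of the 4 falls, the one at RPS7 therefore did not involve a split peak. The 4 largest rises were smaller, with RPS14 from 2158 to 2400 bp, RPL34 from 2047 to 2174 bp, RPL38 from 3040 to 3159 bp and RPL22 from 2977 to 3081 bp. At RPL38 this widest peak was not the one over the annotated start. The peak over its start reached 78 bp upstream and 2300 bp downstream in control. In FOXD2 cells it reached 46 and 2199 bp, so the promoter peak itself did not widen. RPS14, the 5q- syndrome gene, had the largest of them, a log2 ratio of 0.15.

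The marks were arranged in the same order along these genes. Of 43 genes with an annotated start, 42 had a start inside an H3K4me3 peak in both lists, with RPL6 as the exception. The peak reached a median of 1139 bp upstream and 1918.5 bp downstream of the start in control, and 1025.5 and 1714 bp in FOXD2 cells. It ran farther downstream than upstream at 36 of 42 genes in control and 35 in FOXD2 cells. In the bin of 100 bp at 1 kb downstream, H3K4me3 covered 97.7% of the 43 genes in both lists, against 67.2% and 66.5% of 4478 other short genes with the mark. At 2 kb downstream it covered 41.9% and 32.6%, against 12.0% and 10.9%.

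H3K4me1 was nearly absent just downstream of the start and overlapped the outer part of the H3K4me3 domain. At 0.5 kb downstream of the start, H3K4me1 peaks covered between 0% and 2.33% of the 43 genes in the 4 lists, against 30.1% to 51.3% of the other short genes. At 1 kb downstream, where H3K4me3 still covered 97.7%, H3K4me1 covered 55.8% to 88.4%, against 67.1% to 77.8%. At 2 kb downstream it covered 97.7% of the 43 genes in each of the 4 lists, against 37.2% to 53.6%. Upstream the flank was less regular, with 60.5% to 79.1% at 1 kb before the start, against 57.7% to 71.6%. H3K27ac overlay the start, covering 97.7% of the 43 genes at 0.5 kb downstream in all 4 lists, against 71.3% to 80.6%, and 41.9% to 67.4% at 2 kb, against 23.4% to 43.3%. The same arrangement stood in the control and the FOXD2 lists.

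**Figure D2:**
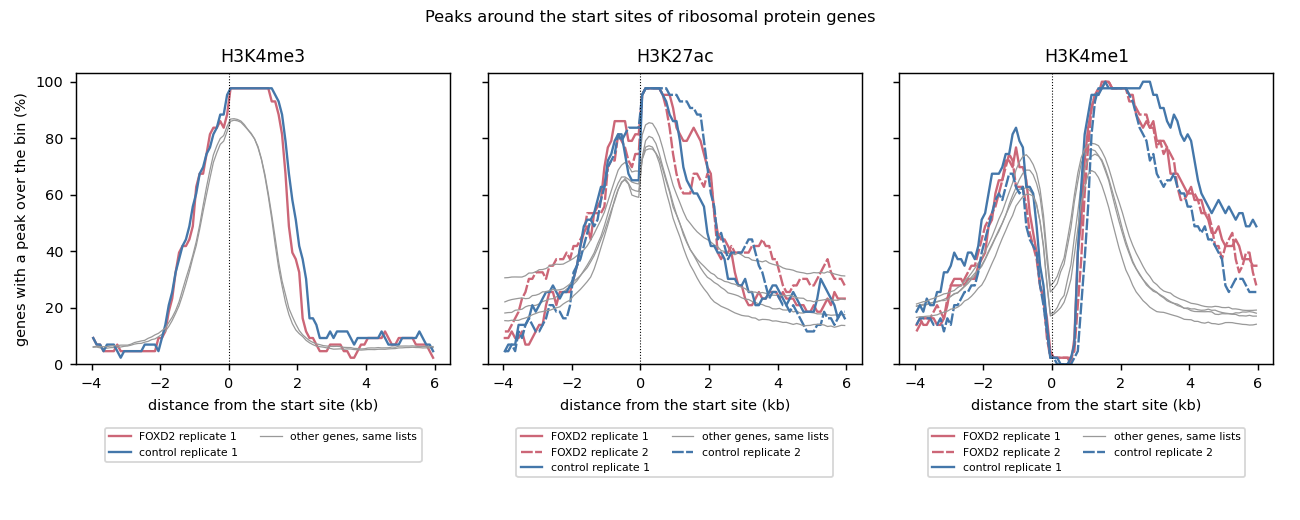
Share of 43 ribosomal protein genes with a peak over each bin of 100 bp (vertical axis, %) against the distance from the start site (kb, horizontal axis, downstream to the right), for H3K4me3, H3K27ac and H3K4me1. Coloured lines are control and FOXD2 libraries and grey lines are 4478 other short genes with H3K4me3 in the same lists. H3K4me1 falls to at most 2.33% at 0.5 kb and stands at 97.7% at 2 kb in all 4 lists.

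H3K27ac was found at all 51 genes in each of the 4 lists. It had a peak in all 4 at 71.0% of all genes, and in at least 1 at 84.1%. Of the short genes with H3K4me3, 93.7% had it in all 4, so this presence is common among such genes. The top peak at the 51 genes had a median fold enrichment in the authors' lists of 12.1 and 17.8 in control. In FOXD2 cells it was 11.3 and 15.0. These medians stood at the 88.5, 92.5, 83.9 and 83.9 percentile of all genes with a peak in the same list. Covered length per gene averaged 4146.8 and 4434 bp in the control libraries and 4382 and 4604 bp in the FOXD2 libraries. The groups were 4290.4 ± 203 and 4493 ± 157 bp (SD, n = 2), a difference of 202.4 bp (exact permutation test, two-sided, p = 0.667, where 2 against 2 cannot go below 0.333). The libraries of the groups interleave, and the difference was 58.9 bp without control replicate 1 and 345.9 bp without control replicate 2.

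Gene by gene, few members separated the groups. Covered length was above both control lists in both FOXD2 lists at 5 genes (9.80%, against 29.5% of all genes with a peak and 25.03% of the short ones). RPL3 had 4409 and 5691 bp in control and 6735 and 8137 bp in FOXD2 cells, a difference in means of 2386 bp. RPL7A had 1914 and 2679 bp against 2807 and 4168 bp. For RPS13, whose groups were also apart, the values were 2997 and 3471 bp against 4263 and 3579 bp. RPL3 shows the widest separation of these genes. RPS7 had 2469 and 2545 bp against 3190 and 2804 bp, and RPS23, a protein of the decoding site, had 3575 and 3831 bp against 4017 and 3927 bp.

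Covered length of H3K27ac was below both control lists in both FOXD2 lists at 6 genes (11.8%, against 4.64% of all genes and 4.54% of the short ones). RPS12 had 2959 and 4712 bp in control and 2951 and 2190 bp in FOXD2 cells. RPLP1, a protein of the acidic stalk that recruits elongation factors, had 1140 and 2759 bp against 872 and 844 bp. RPS24 had 3892 and 3053 bp against 2634 and 2428 bp, and RPSA had 4323 and 4637 bp against 4151 and 3268 bp. RPS18 had 7230 and 7937 bp against 7217 and 7111 bp, and RPL15 had 2367 and 2428 bp against 2326 and 1882 bp. The groups nearly touch at RPS12, RPS18 and RPL15 and are farther apart at RPS24. With only 2 libraries per group, the single genes carry no test. Leaving out any 1 of the 4 libraries gave between 11 and 19 genes longer and between 8 and 17 shorter. With a list left out fewer lists must be apart, so such counts can only stay or rise. The matching share of all genes is not given here. Set per Mb covered by the list, the counts were 0 longer (against 15.6% of all genes) and 9 shorter (17.6%, against 14.2%).

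H3K4me1 was likewise found at all 51 genes in each of its 4 lists. It had a peak in all 4 at 76.6% of all genes, and in at least 1 at 83.0%. Among short genes with H3K4me3, it had a peak in all 4 lists at 98.8%, near the members. It covered 61.2% and 46.7% of the members' windows in control and 53.4% and 50.8% in FOXD2 cells, against 34.9%, 26.5%, 32.3% and 30.3% for short genes with H3K4me3. The spans differ, with medians of 5035 bp for the members and 9899 bp for those genes, and the part of window size in these shares was not tested. Per gene, this came to 6057 and 4492 bp in control and 5237 and 4953 bp in FOXD2 cells. The groups were 5275 ± 1106.5 and 5095 ± 200.5 bp (SD, n = 2), a difference of -179.8 bp (exact permutation test, two-sided, p = 1.0). Both FOXD2 lists lay between the 2 control lists at 27 of the 51 genes. Control replicate 1 was the highest of the 4 at 43 genes and control replicate 2 the lowest at 34, so the controls span the FOXD2 values. The difference turned to 602.6 bp without control replicate 1 and was -962.2 bp without control replicate 2.

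At 2 genes H3K4me1 was longer in both FOXD2 lists than in both control lists (3.92%, against 38.2% of all genes and 17.8% of the short ones), and at 9 it was shorter (17.6%, against 12.4% and 11.7%). Both counts depend on single control libraries, with 34 longer without control replicate 1 and 43 shorter without control replicate 2. With a list left out fewer lists must be apart, so a count can only stay or rise. The share of all genes under that easier rule is not given here. RPLP1 had 2927 and 2204 bp in control and 4606 and 3087 bp in FOXD2 cells, the reverse order of its H3K27ac. RPS2 had 4425 and 3824 bp against 4583 and 4528 bp. Among the 9 that were shorter, RPL37 (chromosome 5, 40825262 to 40835222), a zinc-binding protein of the large subunit, had 7255 and 5261 bp against 3381 and 3133 bp. Its difference in means, -3001 bp, was the largest of the 9 and exceeded the gap between its controls. RPL22 had 11324 and 7158 bp against 6437 and 6620 bp, and RPL7 had 4254 and 2281 bp against 2227 and 1958 bp. RPL26, which also binds the p53 mRNA, had 8694 and 6709 bp against 6664 and 6608 bp. RPL9 had 4357 and 2798 bp against 2723 and 2764 bp, and RPL35 had 6392 and 5557 bp against 5468 and 4857 bp. At RPL22, RPL7, RPL26 and RPL9 the second control library lay much nearer to the FOXD2 libraries than to the first control library.

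These counts depend on how the lists are scaled, since the FOXD2 lists of H3K4me1 cover more of the genome, at 163.8 and 177.4 Mb against 146.3 and 121.3 Mb in control. Per Mb covered by the list, a scale chosen after the data were seen, the mean per gene was 39.2 ± 3.08 bp in control and 29.9 ± 2.86 bp in FOXD2 cells (SD, n = 2), a difference of -9.27 bp (exact permutation test, two-sided, p = 0.333, the smallest that this design allows). On this scale 0 genes were higher in both FOXD2 lists, against 24.2% of all genes, and 39 were lower (76.5%, against 43.0% of all genes and 59.1% of the short ones). The mean covered length per gene stayed within the range of the controls, while the FOXD2 lists as a whole covered more.

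**Figure D3:**
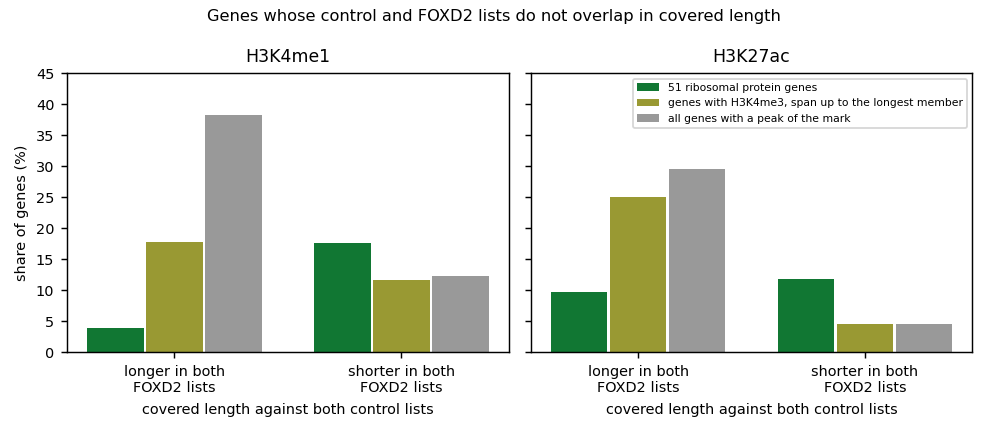
Share of genes (%, vertical axis) whose covered length was longer, or shorter, in both FOXD2 lists than in both control lists, for the 51 ribosomal protein genes, for genes with H3K4me3 and a span up to that of the longest of them, and for all genes with a peak of the mark. For H3K4me1, 3.92% of the ribosomal protein genes were longer and 17.6% shorter, and for H3K27ac 9.80% and 11.8%.

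MLL4 was found at fewer of these genes and varied most between libraries. Peaks lay at 20 and 14 of the 51 genes in control and at 20 and 2 in FOXD2 cells, or 17 ± 4.24 and 11 ± 12.7 (SD, n = 2), a difference of -6 (exact permutation test, two-sided, p = 1.0). The second FOXD2 library is the shortest list of all, and without it the difference was 3, while without FOXD2 replicate 1 it was -15. At least 1 list held a peak at 31 genes (60.8%, against 59.0% of all genes and 75.1% of the short ones), and all 4 lists at 2 genes (3.92%, against 8.63%). Most of the peaks that were found overlapped H3K4me3, but fewer lay close to a start site. Of the MLL4 peaks at these genes, 24 of 29 and 14 of 15 in control and 22 of 31 and 3 of 3 in FOXD2 cells overlapped H3K4me3 held by both lists. At members with an annotated start, 10 of 23 and 3 of 12 in control lay within 500 bp of it. In FOXD2 cells 11 of 29 and 0 of 3 did. The matching shares for other genes are not given here.

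The 2 genes with MLL4 in all 4 lists were RPL13 and RPS18. RPL13 had 3868 and 2199 bp of MLL4 in control and 3518 and 822 bp in FOXD2 cells, the most of any of the 51 genes in each list. Its H3K4me3 domain was the widest of the 51 in control and the fourth widest in FOXD2 cells. RPS18 had 1073 and 780 bp in control and 614 and 417 bp in FOXD2 cells, so its groups did not overlap. Since FOXD2 replicate 2 held a peak at 2 genes only, at most these 2 could be longer in both FOXD2 lists, and the count was 0 of 31 (against 2.04% of all genes with a peak). Without that library it was 16. Of the 31 genes, 5 were shorter (16.1%, against 16.6%), and 12 without control replicate 2. Leaving out a library can only keep or raise these counts, and the matching share of all genes is not given here. Per Mb covered by the list, the counts were 0 (against 4.06%) and 4 (12.9%, against 17.8%). The 5 genes that were shorter before scaling per Mb were RPS18, RPS19, RPL8, RPS15 and RPL7. RPS19 had 657 and 683 bp against 0 and 0, and RPL8 had 379 and 710 bp against 0 and 0. RPS15 had 591 and 267 bp against 0 and 0, and RPL7 had 557 and 355 bp against 308 and 0. RPS19, the gene most often mutated in Diamond-Blackfan anaemia, shows the largest of these falls, from a single peak in each control list. The share of 16.1% is near that of genes at large.

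The tag lists ask where tagged FOXD2 was placed. Cells without the tags were not profiled with these antibodies among the samples used here, so binding cannot be told apart from a background that the tag lists share. Tag peaks lay at 37 and 29 of the 51 genes with the 6xHis antibody and at 28 and 34 with the FLAG antibody, or 33 ± 5.66 and 31 ± 4.24 (SD, n = 2), a difference of -2 (exact permutation test, two-sided, p = 0.667). The antibodies thus differed by less than their own replicates. All 4 lists held a peak at 21 genes (41.2%, against 26.6% of all genes, 37.3% of genes with H3K4me3 and 15.4% of the short ones with H3K4me3). At least 1 list did at 42 genes (82.4%, against 56.4% of all genes and 49.9% of the short ones with H3K4me3). Genes with H3K4me3 of any length stood nearer, since 4003 of those 13645 had no tag peak, against 9 of the 51. By subunit, peaks in all 4 lists were found at 14 of 29 large-subunit, 1 of 3 stalk and 6 of 19 small-subunit genes. The count in all 4 lists over the 51 genes was 8 when only peaks with a −log10 q of at least 5 were kept, and 12 without the 2 kb extension. Either setting can only keep or lower such a count for any gene set. The matching share of all genes is not given here.

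The 8 genes with the strongest tag peaks in all 4 lists, by the sum of the peaks' ranks within each list, were RPS19, RPL31, RPL21, RPL4, RPL30, RPL37, RPS3 and RPS12. RPL31 (chromosome 2, 101002289 to 101019724), which shares its window with TBC1D8, held the longest tag coverage on average, with 4909 and 2208 bp for 6xHis and 4573 and 2810 bp for FLAG. RPS19 (chromosome 19, 41860255 to 41872925) ranked first with less coverage, 307 and 751 bp against 342 and 2447 bp, and a fold enrichment of 5.92, 5.63, 6.34 and 5.91 in the authors' lists. RPL21 had 3624 and 1842 bp for 6xHis and 1783 and 2052 bp for FLAG. The length covered and the strength of the peak thus order these genes differently.

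RPL4, which lines the nascent peptide tunnel, had 2861 and 2513 bp for 6xHis and 1596 and 3051 bp for FLAG. RPL30 had 2878 and 536 bp against 1635 and 2370 bp. RPL37 had 3615 and 2239 bp against 1186 and 3150 bp. At all of these the values of the 2 antibodies overlap. RPS3, a protein of the mRNA entry site, had 1854 and 1675 bp against 986 and 3342 bp, and RPS12 had 1536 and 696 bp against 1122 and 3119 bp. FLAG replicate 2 gave the highest value at RPS19, RPL4, RPS3 and RPS12, and 6xHis replicate 1 at RPL31, RPL21, RPL30 and RPL37.

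No tag list held a peak at 9 genes, namely RPL3, RPL7A, RPL8, RPL18, RPL32, RPLP2, RPS2, RPS16 and RPS28. Their H3K4me3 was wider than that of the 21 genes with tags in all lists, at medians of 4073 and 3564 bp against 2964 and 2821 bp, although their median span was shorter, at 2910 against 6841 bp. The presence of a tag peak and gene length therefore run together in this set, and their parts were not tested. The tag peaks themselves were modest, with a median top fold of 4.26 and 4.49 for 6xHis and 4.01 and 4.77 for FLAG at the members, against 4.64, 4.98, 4.47 and 4.70 at all genes with a peak. Of the 84, 55, 59 and 81 tag peaks at the members, 42.9%, 47.3%, 32.2% and 46.9% overlapped H3K4me3 held by both lists. Among members with an annotated start, 25.8%, 36.4%, 14.3% and 25.8% of the tag peaks lay within 500 bp of it.

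**Figure D4:**
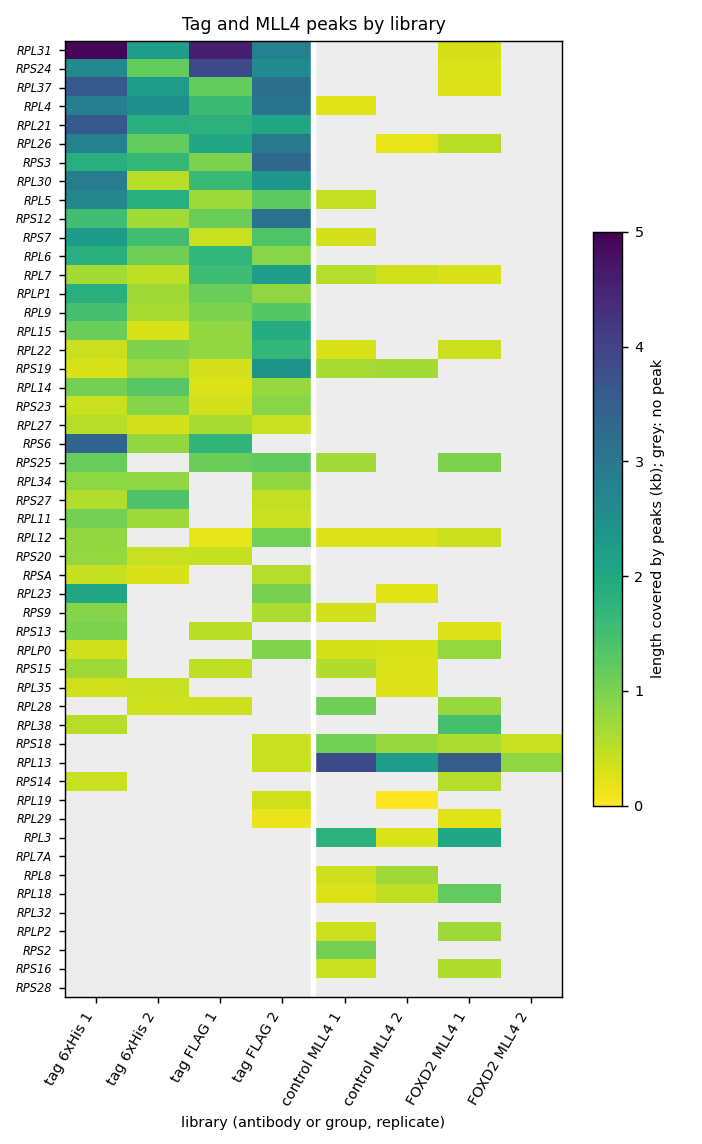
Length covered by tag and MLL4 peaks (kb, colour scale, grey for no peak) in the span of each of the 51 ribosomal protein genes extended by 2 kb, with 1 column per library and genes ordered by the number of tag lists that hold them and then by their mean tag coverage. The upper 21 genes have a peak in all 4 tag lists and the lowest 9 in none, while RPL13 and RPS18 have MLL4 in all 4 lists.

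Related gene lists were set beside the 51 genes. Of 27 other ribosomal protein genes, 26 had H3K4me3 in both lists, with median widths of 3284 and 3029 bp, and 23 of the 26 were narrower in FOXD2 cells. Translation factors had H3K4me3 at 26 of 27, with 2919 and 2783 bp and 16 of 26 narrower, and ribosome biogenesis genes at 23 of 23, with 2618 and 2350 bp and 13 of 23 narrower. The other ribosomal protein genes thus showed the wide H3K4me3 of the members too. H3K27ac was longer in both FOXD2 lists at 6 of 27, 12 of 26 and 8 of 23 genes of these lists and shorter at 0, 1 and 2. H3K4me1 was longer at 1 of 27, 5 of 26 and 2 of 23 and shorter at 3, 1 and 5. Tag peaks in all 4 lists were found at 6 of 27 other ribosomal protein genes, at 19 of 27 translation factors, whose median span was 18312 bp, and at 9 of 23 biogenesis genes.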

How the data were processed

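Peaks of 18 libraries were analysed. Per the submitters' processing notes, the tools were MACS2 2.2.7.1, Bowtie2 2.3.4.1, cutadapt 3.4, bedtools and Picard, on hg38. For each library the authors deposited its own narrowPeak list, without pooling of samples. Each deposited list gives a fold enrichment as a ratio, the p-value and q-value as −log10, and a score, which is 10 times the −log10 q cut to a whole number. The lowest −log10 q in the lists was 2.0. The background library and the read depth are not given in the sources used here.

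Peaks on chromosomes 1 to 22 and X that overlapped a RefSeq (GRCh38.p14) gene span extended by 2000 bp by at least 1 bp were merged within each list and their covered length was summed. The authors' fold was used within a list only, and the score was not used further. Strand and start sites came from the RefSeq promoter table, where RPL5, RPL7, RPL8, RPL23, RPL30, RPL37, RPS2 and RPS20 had no entry. Where a gene had several starts, a motif counted if any start held it, and the printed start is the one with the longest pyrimidine run. Library means were compared by exact permutation tests, and genes whose groups do not overlap were counted beside all protein-coding genes. Members, lists and settings were chosen with earlier results of these data known. Named genes followed a rule: the 4 widest and 4 narrowest H3K4me3 domains, the 4 largest rises and falls, up to 6 genes per direction and mark whose groups did not overlap, and the 8 strongest tag genes. Python 3.11.15, numpy 2.4.6, pandas 2.3.3, scipy 1.17.1 and matplotlib 3.10.9 were used, and the steps were tested on simulated lists. The alternatives were a stricter q, equal list length, other windows, a gap of 500 bp, leaving out neighbours or single libraries, a replicate block and scaling per Mb.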

Additional observations from a re-analysis of the deposited data

How the results depend on the processing

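Without genes that have a neighbour, the median H3K4me3 width was 2985.5 bp in control and 2741.5 bp in FOXD2 cells. Its median log2 ratio was -0.07 in place of -0.08. H3K4me1 and H3K27ac lay at all 51 genes in each of their lists, so leaving out a library could not change those counts. The cause of the shifts below was not tested. Apart from the scale per Mb, the share of all genes under each changed setting is not given here. The shifts therefore cannot be read as particular to these genes. The replicate block asks less of a gene than the main rule, so its counts can only stay or rise. The count of genes longer in H3K4me1 was 7 within 2 kb of the start site, 1 without genes that have a neighbour, 6 with the replicate block and 0 per Mb. The count of shorter ones was 4 without neighbours and 39 per Mb. For H3K27ac, the count of longer genes was 8 at −log10 q of 5 or more, 8 with the replicate block and 0 per Mb. Within 2 kb of the start site 10 genes were shorter and the mean difference turned to -28.2 bp, and per Mb it was -7.42. For MLL4, the difference in genes with a peak was 1 at equal list length, the mean difference was 0.30 bp without the extension, and the count of shorter genes was 1 at equal length, 0 without the extension and 3 without neighbours. Tag peaks in all 4 lists stood at 8 genes with the stricter q and at 12 without the extension or without neighbours, which leaves 28 genes.

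Leaving out 1 library at a time gave the following ranges. Counts of genes longer, shorter or with tag peaks in all lists can only stay or rise this way. The share of all genes with a library left out is not given here. For H3K4me1, the mean difference ran from -962.2 bp without control replicate 2 to 602.6 bp without control replicate 1, with 2 to 34 genes longer (34 without control replicate 1) and 9 to 43 shorter (43 without control replicate 2). For H3K27ac, the mean difference ran from 58.9 bp without control replicate 1 to 345.9 bp without control replicate 2, with 11 to 19 genes longer and 8 to 17 shorter. For MLL4, the difference in genes with a peak ran from -15 to 3 and in length from -191.9 to 102.5 bp. Both were lowest without FOXD2 replicate 1 and positive without FOXD2 replicate 2, and the length was 34.4 bp without control replicate 1. MLL4 was longer at 0 to 16 genes (16 without FOXD2 replicate 2) and shorter at 5 to 12 (12 without control replicate 2). FLAG minus 6xHis ran from -6 to 2 genes, at 2 without 6xHis replicate 1 and 1 without FLAG replicate 1, and 21 to 25 genes had tag peaks in the remaining lists.

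Replicates share only a number, and with 2 pairs no pairing is shown. The correlation of same-numbered deviations was 0.03 for H3K4me1, -0.40 for H3K27ac, 0.03 for MLL4 and 0.09 for the tags. Besides the counts above, the replicate block gave 12 genes shorter in H3K4me1, 9 in H3K27ac and 6 in MLL4, each within 1.5 times the count without it. The mean difference in H3K27ac had an exact permutation p of 0.5 with the block, the smallest that 2 pairs allow. A crossed pairing for H3K27ac, added after the data were seen, gave 16 longer genes. The share of all genes under either pairing is not given here.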

Other observations

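Ribosomal protein genes have many processed copies, and reads from these can be hard to place. RefSeq lists 1263 pseudogenes of the 52 genes, among them 137 of RPL21, 80 of RPL7A, 74 of RPSA and 64 of RPL31. An H3K4me3 peak lay over 8 of the 1263 in control and 9 in FOXD2 cells (0.633% and 0.713%), against 3.13% and 3.03% of 15401 other pseudogenes. H3K4me1 peaks lay over 6.49% and 5.07% in control and 7.84% and 8.55% in FOXD2 cells, against 8.23%, 7.103%, 9.21% and 9.81%. Tag peaks lay over 2.296% and 1.504% (6xHis) and 1.58% and 1.58% (FLAG), against 2.32%, 1.55%, 2.00% and 2.24%. The copies thus carried these marks no more often than other pseudogenes did. How reads with several placements were treated was not given in the sources used here.

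The promoters of the 43 genes with an entry were less rich in G and C than those of other marked genes, with a median of 58.3% against 65.3% over 11123 genes with H3K4me3 in both lists. Those of the 7 genes without a tag peak had a median of 63.7%, and those of the 17 with tag peaks in all 4 lists 56.7%.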
